A study of Mus musculus with 11 samples.

Results

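Lipid-associated macrophages are macrophages that gather where cells have died or stored excess lipid, and they are recognised by a shared set of transcripts for lipid uptake, lysosomal digestion and matrix signalling. In injured liver, such cells appear among recruited monocyte-derived macrophages as dead hepatocytes are cleared. The 9 transcripts of this set followed here were taken by name: Gpnmb, Spp1, Trem2, Cd9, Cd63, Cd68, Fabp5, Lgals3 and Atp6v0d2. All 9 were present among the 31053 genes in the files.

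Spatial gene expression was measured on snap-frozen mouse liver sections 10 µm thick with the Visium assay, in which barcoded spots capture the 3′ ends of polyadenylated transcripts and each spot covers several cells. Uninjured liver at 0 h was represented by 3 sections (2, 3 and 4). Liver after overdose of acetaminophen (APAP), which kills the hepatocytes around the central veins, was represented by 2 sections, A and B, at both 24 h and 36 h, and by 4 sections, named A to D, at 48 h. Per its methods, the study used C57BL/6JCrl mice and reporter lines, male unless stated otherwise. Mice for the APAP model were fasted and then injected intraperitoneally with APAP. Each time point of this assay came from a single mouse. In the labels each section is a sample of its own and no animal is named, so n counts sections. Mouse and time cannot be told apart, and p-values cover no spread between mice. The edgeR p-values take the spread between sections in part from other genes. The methods tie no strain, transgene or deletion to these sections in particular. After filtering, 1490 to 3466 spots per section held 31292663 to 67045372 unique molecular identifiers (UMIs), with a median of 15168.5 to 29950 UMIs per spot. The median mitochondrial share of a spot moved with injury, from 4.31% to 6.38% at 0 h to 1.69% to 2.67% in 7 injured sections and 4.56% in 36 h B, and its part in the changes from 0 h was not tested. Hepatocyte markers, which define the labelled tissue, were present in every section, with 6 genes such as Alb and Ttr summing to 72897 to 114754 counts per 1000000 of the section total.

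The members fall into 4 roles. Trem2 is a surface receptor for lipids and apolipoproteins that signals through the adaptor Tyrobp (chromosome 17, 48346401 to 48354147, build GRCm38). Spp1 encodes the secreted matrix protein osteopontin (chromosome 5, 104435118 to 104441050), Gpnmb a lysosomal and surface glycoprotein that can be shed (chromosome 6, 49036546 to 49070929), and Lgals3 the sugar-binding galectin-3 that marks damaged lysosomes (chromosome 14, 47367751 to 47386160). Cd9 (chromosome 6, 125460266 to 125494791) and Cd63 (chromosome 10, 128900989 to 128912822) are tetraspanins, membrane organisers of the cell surface and of late endosomes. Cd68 is a macrophage lysosomal membrane protein (chromosome 11, 69664213 to 69666153). Fabp5 carries fatty acids in the cytosol (chromosome 3, 10012548 to 10016607), and Atp6v0d2 is a subunit of the proton pump that acidifies lysosomes (chromosome 4, 19876841 to 19922605). The 9 genes lie on 8 chromosomes.

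Promoter windows from RefSeq (GRCm38.p6, 250 bases before the annotated start) matched 7 of the 9 members, with a second window for Spp1. The windows of 3 members are shown because these members differ in the results: Gpnmb was almost absent at 0 h, Spp1 was also high in bile duct spots, and Cd68 is the general macrophage marker. Capitals mark matches, on either strand, to 3 motifs: TGAGTCA for AP-1, GAGGAAGT for PU.1 and CACGTG for the E-box bound by the MiT/TFE factors.
Gpnmb (plus strand, chr6:49036268-49036517): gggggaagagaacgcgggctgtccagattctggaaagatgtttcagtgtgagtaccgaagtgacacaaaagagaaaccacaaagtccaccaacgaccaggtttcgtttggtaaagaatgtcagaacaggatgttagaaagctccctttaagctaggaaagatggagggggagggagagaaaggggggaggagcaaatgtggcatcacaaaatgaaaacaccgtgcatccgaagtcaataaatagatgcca
Spp1 (plus strand, chr5:104434861-104435110): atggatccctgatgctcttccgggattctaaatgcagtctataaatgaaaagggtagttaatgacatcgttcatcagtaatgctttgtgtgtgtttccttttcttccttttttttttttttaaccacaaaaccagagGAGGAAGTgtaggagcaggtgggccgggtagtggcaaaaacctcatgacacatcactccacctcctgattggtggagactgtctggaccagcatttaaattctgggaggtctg
Cd68 (minus strand, chr11:69666171-69666420): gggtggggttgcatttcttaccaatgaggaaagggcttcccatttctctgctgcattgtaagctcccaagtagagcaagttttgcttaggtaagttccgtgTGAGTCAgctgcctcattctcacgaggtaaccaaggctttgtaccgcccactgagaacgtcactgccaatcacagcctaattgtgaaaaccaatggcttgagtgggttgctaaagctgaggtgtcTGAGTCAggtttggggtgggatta
The Cd68 window held TGAGTCA at positions -149 and -24 from the start, a motif found in 4.46% of all 32851 windows of this length. The first Spp1 window held GAGGAAGT at position -113, a motif found in 2.44% of windows. The E-box, found in 6.02% of windows, was in none of the 8 windows of the members. A match is a description of these letters and not a binding site.

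Gpnmb showed the widest range over time. The 3 sections at 0 h held 0, 4 and 3 UMIs of Gpnmb in total, and the injured sections held 301 to 15750. In counts per 1000000 of the section total after TMM scaling (CPM), Gpnmb stood at 7.81 and 9.60 at 24 h, 30.9 and 39.5 at 36 h, and 101, 106, 226 and 147 at 48 h for sections A to D in that order. Each time point lay above every section of the time before it. With only 7 UMIs at 0 h, the ratio to 0 h carries a wide 95% counting interval: 164.7-fold at 24 h (79.5 to 411), 680-fold at 36 h (330 to 1693) and 2865-fold at 48 h (1390 to 7126). Gpnmb was the only member called in both steps between neighbouring injured times, by log2 2.02 ± 0.39 (SE) from 24 h to 36 h (edgeR, adjusted p = 0.0119) and by 2.05 ± 0.36 from 36 h to 48 h (adjusted p = 0.022). The first of these calls was lost without 24 h A (log2 1.87, adjusted p = 0.0839) and the second without 36 h A (1.88, 0.0837) or 48 h B (2.17, 0.0502).

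Trem2 followed the same order at a lower level. It stood at 0.68, 1.34 and 1.07 CPM at 0 h, 7.89 and 10.4 at 24 h, 14.4 and 33.0 at 36 h, and 39.0, 38.9, 76.0 and 51.6 at 48 h. No section overlapped with a section of another time. The log2 change from 0 h was 3.13 ± 0.44 at 24 h (edgeR, adjusted p = 0.000464), 4.51 ± 0.44 at 36 h (adjusted p = 0.000297) and 5.62 ± 0.43 at 48 h (adjusted p = 2.32e-05). The step from 24 h to 36 h did not pass (log2 1.38 ± 0.43, adjusted p = 0.0566), nor did that from 36 h to 48 h (1.12 ± 0.38, adjusted p = 0.137), whereas 48 h exceeded 24 h (2.49 ± 0.41, adjusted p = 0.00198).

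Lgals3, Cd63 and Cd68 had already risen at 24 h. Lgals3 stood at 10.1, 11.01 and 12.4 CPM at 0 h, 93.4 and 111 at 24 h, 101 and 192 at 36 h, and 295, 242, 512 and 278 at 48 h, a log2 change from 0 h of 3.20 ± 0.34 at 24 h (edgeR, adjusted p = 9.67e-05) and 4.90 ± 0.34 at 48 h (adjusted p = 1.81e-05). Its 24 h and 36 h sections overlapped, and all 48 h sections lay above both. Cd63 stood at 11.2, 12.6 and 12.9 CPM at 0 h, 67.2 and 94.0 at 24 h, 75.6 and 123 at 36 h, and 99.2, 87.7, 178 and 93.5 at 48 h. Cd68 stood at 17.4, 18.5 and 18.4 CPM at 0 h, 49.7 and 60.1 at 24 h, 58.3 and 93.2 at 36 h, and 82.7, 79.0, 157 and 97.9 at 48 h. For both genes the injured times overlapped one another while all 8 injured sections lay above 0 h. Cd63 was 2.72 ± 0.32 higher on the log2 scale at 24 h (adjusted p = 0.000156), and at 48 h it was 3.23 ± 0.30 higher (adjusted p = 4.49e-05), with a difference of 0.51 ± 0.30 between 48 h and 24 h that did not pass (adjusted p = 0.212). For Cd68 the log2 change was 1.60 ± 0.28 at 24 h (adjusted p = 0.00146), and at 48 h it was 2.53 ± 0.26 (adjusted p = 7.19e-05).

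Spp1, whose osteopontin is made by bile duct cells as well as by macrophages, moved in 2 stages. It stood at 45.4, 59.5 and 67.0 CPM at 0 h, 122 and 109 at 24 h, 88.9 and 137 at 36 h, and 185, 282, 455 and 294 at 48 h. Sections of 24 h and 36 h overlapped and the 48 h sections lay above all others. The log2 change from 0 h was 1.02 ± 0.32 at 24 h (edgeR, adjusted p = 0.0274), 0.98 ± 0.32 at 36 h (adjusted p = 0.0431) and 2.41 ± 0.30 at 48 h (adjusted p = 0.00018). The 48 h call held in each repeat that left out 1 section. The 24 h call was lost without 24 h A (log2 0.93, adjusted p = 0.12), 24 h B (1.09, 0.075), 0 h 2 (0.84, 0.103) or 0 h 3 (1.01, 0.0688), and the 36 h call without any of 8 sections, most of all 36 h B (0.63, 0.295).

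Fabp5 fell while the others rose. It stood at 724, 810 and 1282 CPM at 0 h, 377 and 82.4 at 24 h, 240 and 99.6 at 36 h, and 131, 153, 268 and 208 at 48 h. All 8 injured sections lay below all 3 at 0 h, and 24 h A stood above every other injured section. Its log2 change from 0 h was -2.03 ± 0.64 at 24 h (edgeR, adjusted p = 0.0292), -2.47 ± 0.66 at 36 h (adjusted p = 0.0209) and -2.31 ± 0.50 at 48 h (adjusted p = 0.00491). The 24 h call was lost without 24 h B (log2 -1.32, adjusted p = 0.12) or 0 h 4 (0.0662), the 36 h call without 36 h B (0.152) or 0 h 4 (0.0509), and the 48 h call held in each repeat that left out 1 section. Fabp5 has near-identical processed copies in the mouse genome, so its counts may be split among them.

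Cd9 had the smallest change at each time, and Atp6v0d2 the next smallest at 48 h. Cd9 stood at 50.6, 51.4 and 44.1 CPM at 0 h, 63.4 and 91.2 at 24 h, 35.6 and 56.8 at 36 h, and 65.2, 63.7, 82.7 and 74.1 at 48 h. It was higher at 24 h (log2 0.67 ± 0.21, edgeR, adjusted p = 0.0244) and at 48 h (0.55 ± 0.18, adjusted p = 0.0266), and at 36 h the difference did not pass (-0.08 ± 0.21, adjusted p = 0.812), where the sections straddled the uninjured ones. The 48 h call was lost without 48 h C (adjusted p = 0.0693), without 48 h D (0.052) and without any one of the 0 h sections (0.0608 to 0.104), and the 24 h call without 24 h B (0.261) or any one of the 0 h sections (0.0598 to 0.096). Atp6v0d2 was sparse, with 48 to 475 UMIs per section, and stood at 1.54, 1.56 and 1.36 CPM at 0 h, 5.03 and 1.98 at 24 h, 3.65 and 3.94 at 36 h, and 3.33, 4.31, 6.81 and 4.41 at 48 h. Its log2 change from 0 h was 1.25 ± 0.37 at 24 h (adjusted p = 0.0199), 1.35 ± 0.37 at 36 h (adjusted p = 0.0215) and 1.66 ± 0.32 at 48 h (adjusted p = 0.00208). Its 24 h call rested on 24 h A (log2 0.41 without it, adjusted p = 0.44), and its 24 h and 36 h calls were each also lost without any one of the 0 h sections (adjusted p = 0.0551 to 0.0659) and the latter without 36 h B (0.0889).

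**Figure D1:**
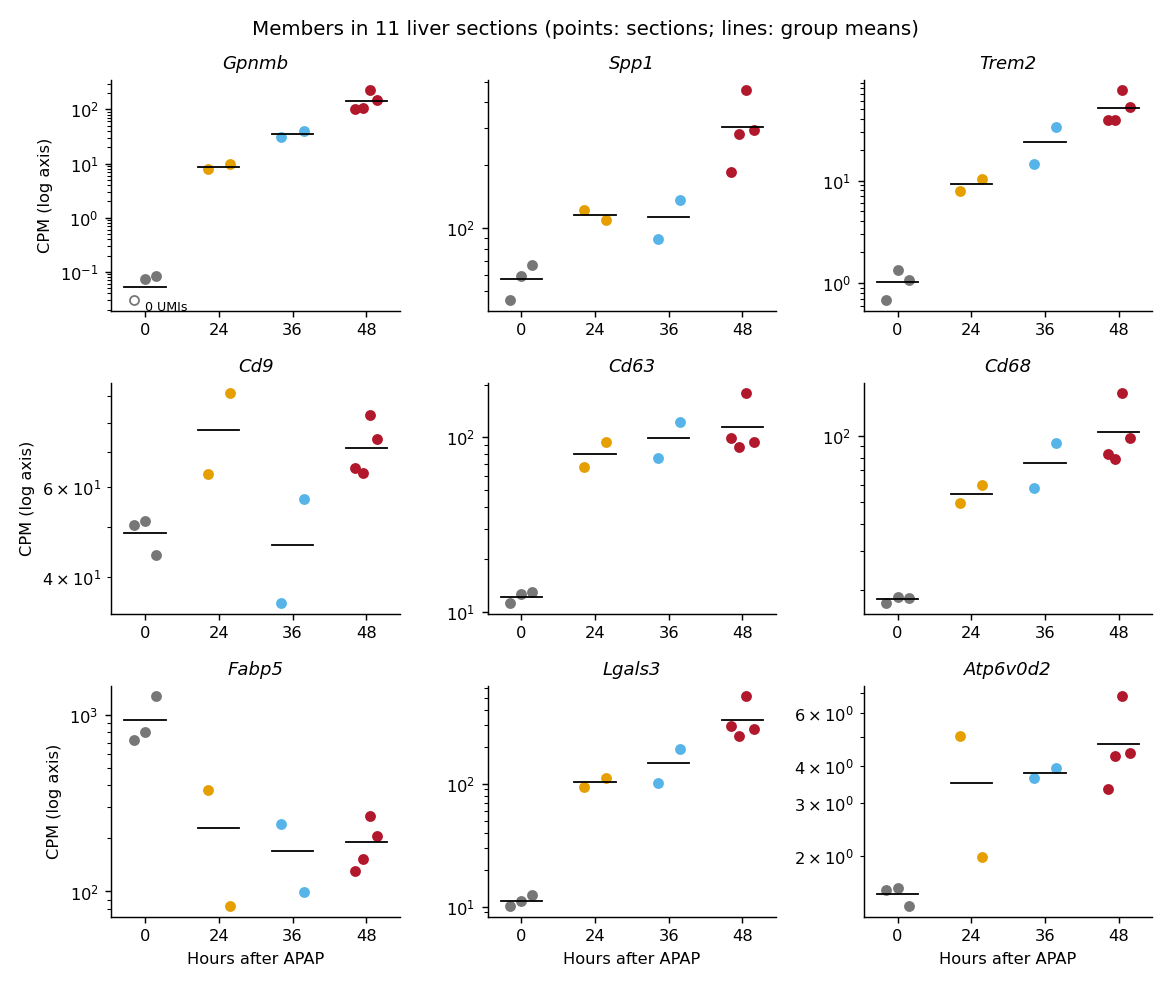
Each panel plots the CPM of a member (log axis) in the 11 sections against hours after APAP; points are sections, lines group means and the open point a section with no UMI. Gpnmb, Trem2 and Lgals3 climb to 48 h, Cd63 and Cd68 are already high at 24 h, and Fabp5 falls.

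Counting the members, 8 were higher and 1 lower than at 0 h at 24 h, 7 higher and 1 lower at 36 h, and 8 higher and 1 lower at 48 h. Among all 14821 genes tested, the shares called at 24 h were 23.1% for higher and 18.6% for lower, those at 36 h 16.8% and 12.4%, and those at 48 h 23.3% and 20.9%. The median log2 change of the members was 1.60, 2.07 and 2.53 at the 3 times, against 0.05, 0.05 and 0.01 over all genes tested. In 7 members all 8 injured sections lay above all 3 at 0 h, as did 15.7% of genes tested, and in Fabp5 all lay below, as did 14.2%. Between injured times, 1 member was called from 24 h to 36 h (15.6% of all genes), 2 from 36 h to 48 h (3.05%) and 5 from 24 h to 48 h (34.1%). Of the last, Spp1 and Cd68 lost their calls without 24 h A (adjusted p = 0.0579 and 0.175) or 24 h B (0.0728 and 0.0807). The 3 comparisons with 0 h share their control sections. Scaling by total counts instead of TMM moved the median log2 change of all genes at 48 h from 0.01 to 0.54, with every member keeping its call and direction at 48 h, Fabp5 losing its call at 24 h (adjusted p = 0.0519) and Cd9 turning from -0.08 to 0.35 at 36 h. In sums over spots, more cells of a kind and more RNA per cell cannot be told apart.

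As a sum, general macrophage markers moved less than most members. The summed pan-macrophage list (10 genes, no member among them, such as Csf1r, Adgre1 and Lyz2) stood at 347 to 383 CPM at 0 h, 398 to 401 at 24 h, 303 to 504 at 36 h and 545 to 1092 at 48 h, with none of its markers at 0. One 36 h section thus lay below and the other above all sections at 0 h, and only 5 of the 10 genes were called higher at 48 h, with Lyz2 among them (log2 1.71 ± 0.25, edgeR, adjusted p = 0.000407) and neither Csf1r (0.07 ± 0.22, adjusted p = 0.813) nor Adgre1 (0.39 ± 0.26, adjusted p = 0.246). Of the 5 genes called higher, Itgam rose by log2 3.58 ± 0.58 and Cx3cr1 by 3.44 ± 0.50, above the member Cd63 at 3.23 ± 0.30. The Kupffer cell list (9 genes of resident macrophages) went from 770 to 886 CPM at 0 h to 890 to 1583 at 48 h. The neutrophil list stood at 3.19 to 9.29 CPM at 0 h, 42.4 to 143 at 24 h, 25.8 to 68.0 at 36 h and 36.9 to 115 at 48 h. Per 100 pan-macrophage UMIs, Gpnmb went from 0.014 at 0 h (mean of 3 sections) to 2.18 at 24 h, 9.02 at 36 h and 17.9 at 48 h, and Trem2 from 0.283 to 2.29, 5.65 and 6.40. Lgals3 went from 3.02 to 25.6, 35.6 and 42.3, whereas Cd63 peaked at 36 h (3.33, 20.1, 24.6 and 14.6), as did Cd68 (4.91, 13.7, 18.9 and 13.1). Spp1 went from 15.6 to 29.0, 28.3 and 37.6, and Fabp5 fell from 253 to 57.7, 49.6 and 23.5.

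In 8 of the 9 members the ratio differed between the 8 injured and 3 uninjured sections (exact two-sided permutation test of the mean log2 ratio, 9 tests). The ratio was not tested for other genes, so this count has no share over all genes beside it. In CPM, all injured sections lay above all at 0 h in 15.7% of genes tested and below in 14.2%. The p was 0.0121, the smallest this design allows, for Gpnmb, Spp1, Trem2, Cd63, Cd68, Fabp5 and Lgals3, and 0.0364 for Atp6v0d2, which rose to 0.05 to 0.133 in 10 of the 11 repeats that left out 1 section. For Cd9 the test did not pass (exact permutation p = 0.545). Its ratio was 13.2 UMIs per 100 in uninjured liver and 19.3, 11.5 and 9.24 at the 3 times after injury, so the injured times lay on both sides of 0 h.

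Other lists of the same pathways moved to different extents at 48 h against 0 h. Of 13 genes tested of Trem2 signalling and the Trem family, 11 rose and none fell, with a median log2 change of 1.59. Tyrobp, the adaptor of Trem2, rose from 102 ± 4.67 (SD, n = 3) to 306 ± 82.0 CPM (n = 4, log2 1.59 ± 0.22 (SE), edgeR, adjusted p = 0.000317), a gene singled out for its role after its value was seen. Trem1, a receptor of neutrophils and monocytes, rose from a mean of 0.019 to 0.415 CPM and its relative Trem3 from 0.042 to 0.641 CPM, both from a few UMIs at 0 h. Treml2 rose by 3.05 ± 0.36 and the platelet gene Treml1 by 2.26 ± 0.53, whereas Treml4 at 0.43 ± 0.19 did not pass (adjusted p = 0.0951).

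Of 17 other lipid-associated macrophage genes, 14 rose and 2 fell, with a median of 1.71. Mmp12, the macrophage elastase, went from 0.21 ± 0.16 CPM (n = 3) to 37.5 ± 3.21 at 24 h (n = 2) and 30.6 ± 8.37 at 48 h (n = 4), so it was already at its later level when Gpnmb was at 8.71 ± 1.27. The chemokine Ccl3 rose by 5.20 ± 0.23 on the log2 scale. Igf1 and the ferritin light chain Ftl1 fell by 0.51 and 0.34, and both stood above 0 under total-count scaling (0.016 and 0.19). Of 9 receptors for osteopontin and Gpnmb, 6 rose and none fell, led by Cd44 (log2 2.20 ± 0.21, adjusted p = 4.81e-05) and the integrin Itga4 (1.29 ± 0.25, adjusted p = 0.00194).

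The lipid list was divided, with 9 of 19 genes higher and 4 lower (median 0.37). Of the relatives of Fabp5, Fabp3 rose from 0.036 ± 0.0079 CPM at 0 h (n = 3) to 1.09 ± 0.392 at 48 h (n = 4), Fabp4 rose by 1.21 ± 0.33 (adjusted p = 0.0142) and Fabp7 by 1.51 ± 0.20 (adjusted p = 0.000237), so that Fabp5 alone fell among the 4 Fabp genes examined. The scavenger receptor Olr1 rose from 0.042 to 0.323 CPM on few UMIs. Apoe, the apolipoprotein bound by Trem2 and made mainly by hepatocytes in liver, fell by 0.82.

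Lysosomal enzymes and membrane proteins rose in 10 of 18 and fell in 2 (median 0.72). Cathepsin K (Ctsk) rose by 1.63 ± 0.38 and alpha-galactosidase (Gla) by 1.30 ± 0.24, whereas Lamp2 fell by 0.73 and Cd164 by 0.70. Of 16 v-ATPase subunits 5 rose and 1 fell (median 0.08). Atp6v0d1, the widely expressed counterpart of Atp6v0d2, stood at 86.4 ± 6.72 CPM at 0 h (n = 3) and 80.8 ± 3.43 at 48 h (n = 4), a log2 difference of -0.10 ± 0.08 that did not pass (adjusted p = 0.37) and that turned to 0.43 under total-count scaling. Tcirg1 and Atp6v1b2, subunits of the same pump, rose by 0.83 ± 0.13 and 0.70 ± 0.13, and Atp6v1f fell by 0.26, a fall that turned to a rise of 0.27 under total-count scaling. Of the 4 MiT/TFE factors, which drive lysosomal genes, 3 rose: Tfec by 0.92 ± 0.24, Mitf by 0.42 ± 0.13 and Tfeb by 0.31 ± 0.11. Tfe3 stood at -0.04 ± 0.09 (adjusted p = 0.708), turning to 0.48 under total-count scaling.

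Relatives of the tetraspanins and of galectin-3 did not move as a family. Of 11 other tetraspanins 5 rose, led by the leukocyte genes Cd53 (1.42 ± 0.30) and Cd37 (1.37 ± 0.32), and 3 fell, Tspan31 by 0.48, Cd81 by 0.44 and Cd82 by 0.34. All 3 turned to values of 0.051 to 0.19 under total-count scaling. Tspan3, Tspan4 and Cd151 rose by 0.51 to 1.30, and Tspan7, Tspan8 and Tspan9 did not pass (-0.40, 0.57 and 0.10). The galectin list held 5 other genes tested, among them Lgals3bp, which encodes a galectin-binding protein and not a galectin. Of these, Lgals1 rose by 2.50 ± 0.39 (adjusted p = 0.000697), whereas Lgals9 fell by 0.79 and Lgals4 by 1.26. Lgals8 stood at -0.26 ± 0.15 and Lgals3bp at 0.17 ± 0.17, and neither passed (adjusted p = 0.198 and 0.447).

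Among the cell type lists at 48 h, all 4 myofibroblast genes rose (Col1a1 by 6.20 ± 0.64 and Acta2 by 4.60 ± 0.43), as did 7 of 8 recruited monocyte genes, all 6 neutrophil genes tested and 5 of 10 pan-macrophage genes (Itgam by 3.58 ± 0.58 and Cx3cr1 by 3.44 ± 0.50). Of the monocyte genes F13a1 rose by 6.58 ± 0.68, and of the neutrophil genes Mmp8 by 5.93 ± 0.71. The values of the lists that passed least were 2 of 6 dendritic cell genes higher (Cd209a by 1.48 ± 0.29 and Clec9a by 0.78 ± 0.20), 1 of 4 platelet genes (Pf4 by 4.11 ± 0.54), 1 of 5 cholangiocyte genes (Sox9 by 1.63 ± 0.31) and 1 of 3 mesothelial genes (Pdpn by 2.61 ± 0.84), and 1 of 7 endothelial genes lower (Kdr fell by 0.78). Of 9 Kupffer cell genes 3 rose, led by the scavenger receptor Marco (2.92 ± 0.24) and Cd5l (0.80 ± 0.19). Of 8 lymphocyte genes none rose and Cd3d and Nkg7 fell, by 0.98 and 0.85. Of 6 hepatocyte genes 4 fell, Cyp2e1 by 2.19, and the acute phase gene Hp rose by 1.17 ± 0.21.

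**Figure D2:**
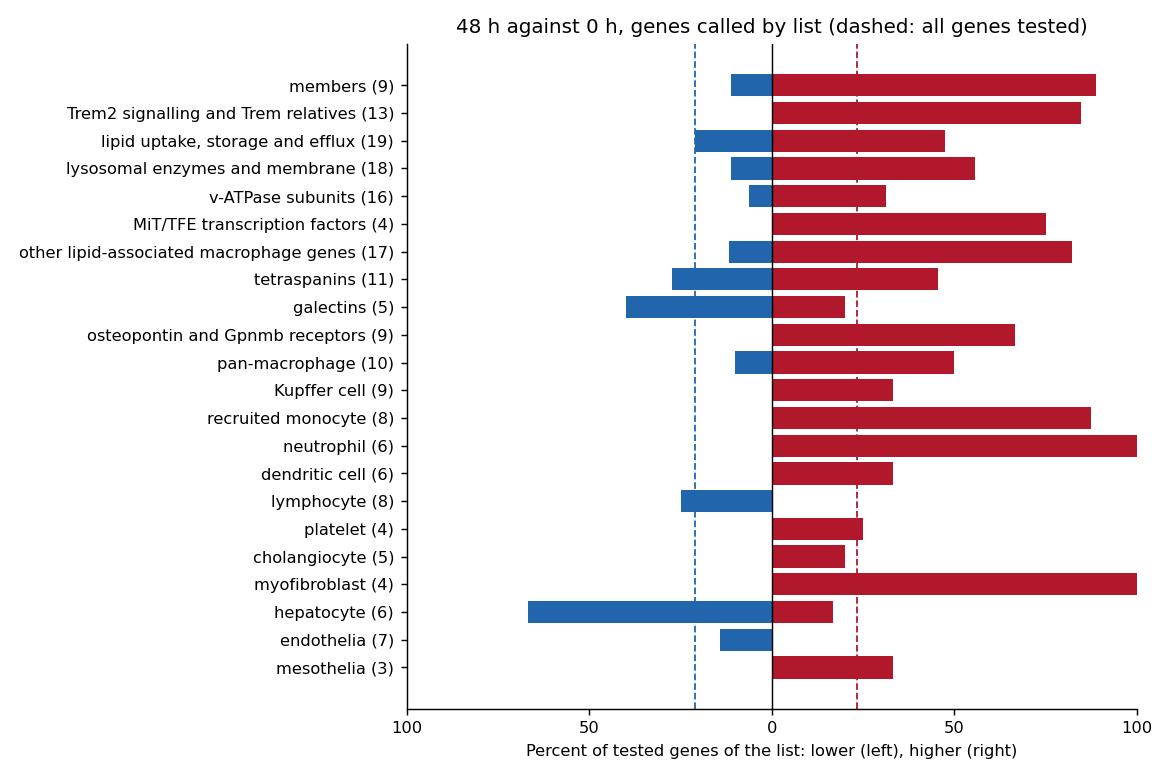
Bars give the percent of tested genes of each list called higher (right) or lower (left) at 48 h against 0 h, with the number tested in brackets; dashed lines give the same share over all 14821 genes, 23.3% and 20.9%. Members, Trem2 signalling and other lipid-associated macrophage genes reach far beyond the dashed line, while the higher calls among v-ATPase subunits and galectins stay near it.

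The spots show where these transcripts lay. After thinning each spot to 2000 UMIs, no spot at 0 h held a Gpnmb UMI (0 of 1937 spots in section 2, which allows a share of up to 0.155%), and the share of spots with a UMI was 1.90% and 1.70% at 24 h, 6.55% and 7.33% at 36 h, and 15.7%, 18.3%, 31.0% and 22.4% at 48 h. Without thinning, the shares were 0%, 0.149% and 0.129% at 0 h and 58.2% to 85.9% at 48 h. Fabp5 went the other way, from 64.5%, 72.2% and 83.2% of thinned spots at 0 h to 22.7% to 39.6% at 48 h. Spp1 was in 5.32% to 7.95% of thinned spots at 0 h, 18.4% and 18.3% at 24 h, 14.7% and 20.4% at 36 h, and 26.6% to 53.6% at 48 h, where its share exceeded those of Gpnmb and Fabp5 in all 4 sections. At 48 h the hepatocyte-low spots described next were 1.81% to 6.28% of spots and held 7.55% to 26.0% of the thinned Gpnmb UMIs.

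**Figure D3:**
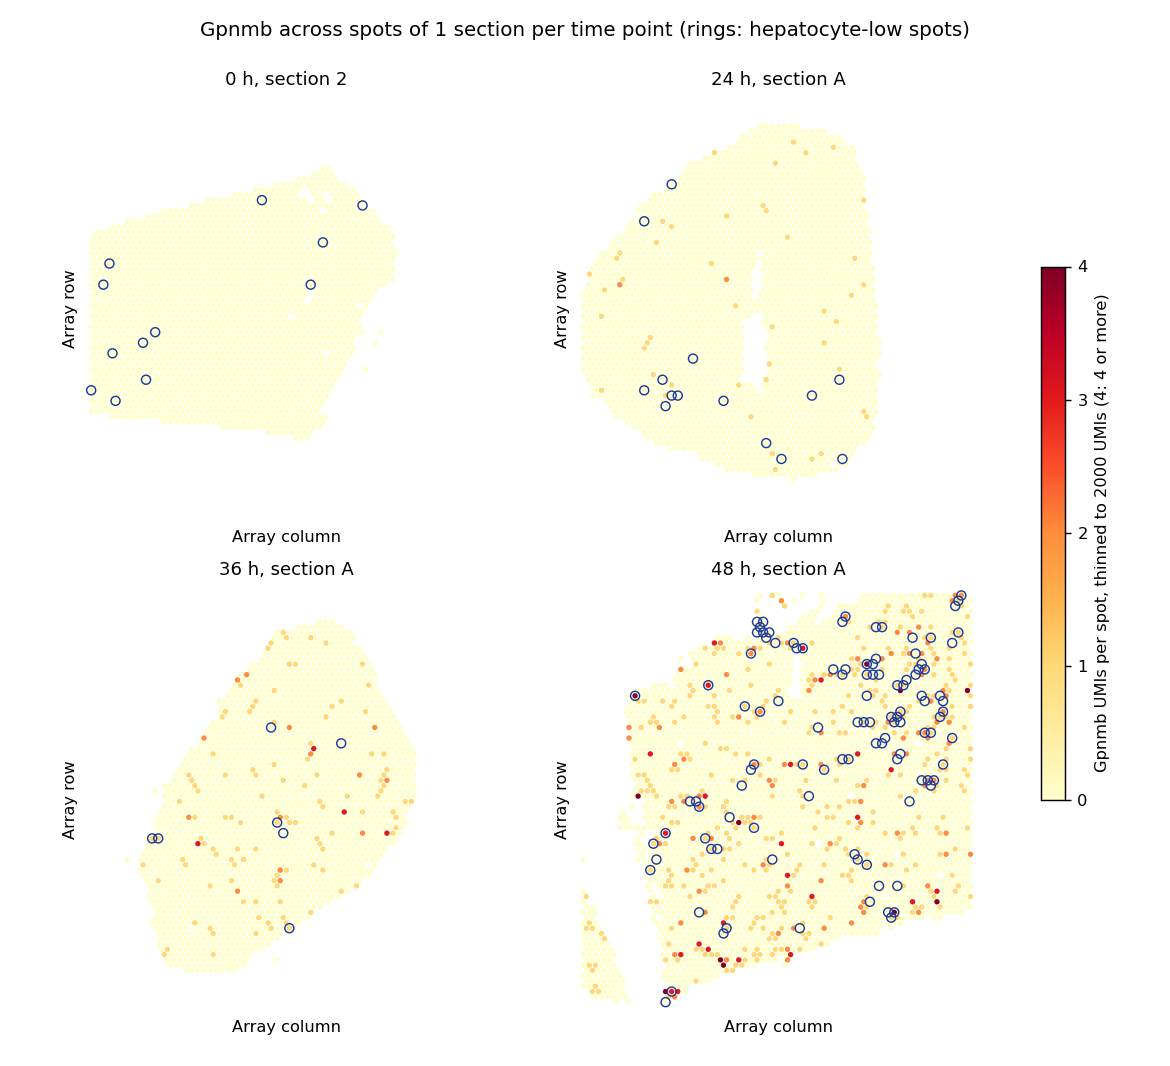
Maps of Gpnmb UMIs per spot, thinned to 2000 UMIs, in the first-labelled section of each time point, laid out by array column and row; rings mark hepatocyte-low spots. The section at 0 h holds no Gpnmb UMI, and at 48 h spots with several UMIs lie both at the rings and away from them.

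To ask where in the tissue the members lay, spots were classed by a hepatocyte score from 6 genes that include no member. Spots below the 1st percentile of the uninjured sections were called hepatocyte-low. They numbered 12, 42 and 18 at 0 h, 14 and 6 at 24 h, 7 and 6 at 36 h, and 111, 27 and 57 in 48 h A, B and D, with more in 48 h C, so that only the 48 h sections had the 20 such spots needed for the comparison. At 48 h Gpnmb stood at 442, 424, 932 and 835 CPM in hepatocyte-low spots of sections A to D, and at 119, 135, 249 and 175 in their other spots, a log2 difference of 1.94 ± 0.07 (edgeR with section as a block, adjusted p = 1.43e-29). Lgals3 stood at 1189, 1005, 1851 and 1458 CPM against 353, 307, 587 and 334, and Trem2 at 163, 138, 265 and 230 against 46.3, 49.8, 88.0 and 63.4. Every section showed the difference.

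The score itself sets part of this contrast, since spots poor in hepatocyte UMIs give other transcripts a larger share. In this comparison 8 of the 9 members were higher in hepatocyte-low spots, against 27.4% of 13644 genes tested, with 27.5% lower. The log2 differences were 1.81 ± 0.06 for Lgals3, 1.70 ± 0.07 for Trem2, 1.65 ± 0.06 for Cd68, 1.28 ± 0.06 for Fabp5, 1.20 ± 0.07 for Cd63, 1.01 ± 0.06 for Spp1 and 0.51 ± 0.07 for Cd9. Atp6v0d2 at 0.11 ± 0.21 did not pass (adjusted p = 0.669). Fabp5, lower than at 0 h over the whole sections, stood at 392, 435, 810 and 682 CPM in hepatocyte-low spots and at 164, 198, 322 and 264 in other spots. Markers of several cell types were high in the same spots. The pan-macrophage list summed to 2505 to 5827 CPM there against 549 to 1134 in other spots, the Kupffer cell list to 2781 to 4241 against 947 to 1691, and the myofibroblast list to 2388 to 5883 against 480 to 1228. The neutrophil list summed to 177 to 457 against 38.8 to 113. Their part in the difference was not tested. The class also depended on Cyp2e1, 1 of the 6 genes of the score. Without it, hepatocyte-low spots numbered 21, 2, 38 and 5 in 48 h A to D, against 111, 27 and 57 in A, B and D with it. Most of these spots were thus classed as hepatocyte-low only with Cyp2e1 in the score. Among the 48 h sections only A and C then had enough spots. A repeat without Cyp2e1 called the same number of members. The sections recorded for that repeat do not match these spot counts, so it is not read as support. The distances from hepatocyte-low spots given below rest on the score with Cyp2e1. The part of the Cyp2e1 level in the difference was not tested.

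The levels fell off within a few spots. In CPM without TMM scaling, Gpnmb in section 48 h C stood at 1103 in hepatocyte-low spots, 372 at 1 grid step, 169 at 2 steps and 128 at 3 steps. Section 48 h B showed 511, 240, 70.2 and 71.9. Beside the tissue, Gpnmb stood at 132 CPM in section 48 h C and 91.1 in 48 h B, at or above the levels at 2 and 3 steps except for the 169 at 2 steps in 48 h C, and the part of transcripts that moved between spots was not tested. Spots at 1 step (ring 1) were compared with spots at 3 or more steps (far) in all 8 injured sections. Ring 1 was higher in 7 members and lower in Spp1, averaged over the 3 times, whereas 5.35% of 13060 genes were called higher and 12.4% lower. The Spp1 average (log2 -0.31) lost its call without 24 h A (adjusted p = 0.468), 24 h B (0.0748) or 36 h A (0.166), that of Gpnmb (1.01 ± 0.13) lost its call without 24 h A (0.175), and that of Cd9 without 36 h A (0.0568). At 48 h the log2 difference was 1.04 ± 0.04 for Gpnmb, 0.97 ± 0.05 for Lgals3, 0.87 ± 0.04 for Cd68, 0.85 ± 0.05 for Trem2, 0.75 ± 0.04 for Cd63, 0.70 ± 0.04 for Fabp5, 0.51 ± 0.05 for Spp1 and 0.31 ± 0.05 for Cd9, 8 members against 24.1% of all genes. Atp6v0d2 at 0.24 ± 0.13 did not pass (edgeR, adjusted p = 0.134). In ring 1 the pan-macrophage list summed to 981 to 2330 CPM at 48 h against 476 to 981 in far spots, and its part in the difference was not tested.

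**Figure D4:**
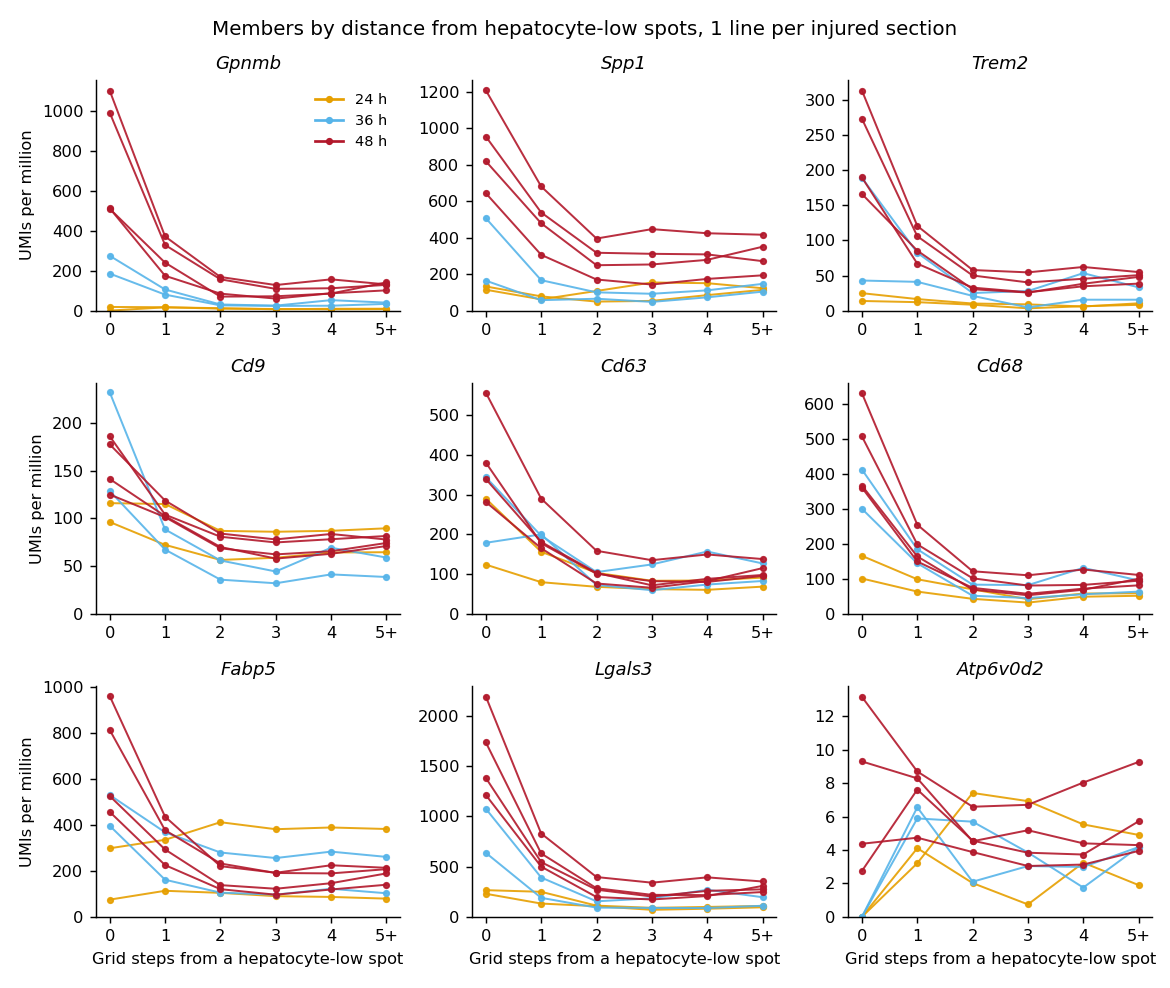
Each panel plots a member in CPM without TMM scaling against grid steps from the nearest hepatocyte-low spot, 1 line per injured section; step 0 is the hepatocyte-low spots, which number 6 to 14 at 24 h and 36 h. At 48 h the lines of Gpnmb, Trem2, Cd68 and Lgals3 drop steeply to step 2, and at 24 h Spp1 is lowest at step 1 in section A and step 2 in section B.

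The direction for Spp1 differed between times. Genes of the score that sets hepatocyte-low spots moved too. Against 0 h over whole sections, Hp stood at log2 2.70 at 24 h and 1.17 at 48 h, and Cyp2e1 at -2.82 and -2.19. Their part in the differences between times was not tested. At 24 h Spp1 was lower in ring 1 (60.0 and 74.8 CPM in A and B) than in far spots (141 and 127), a log2 difference of -1.08 ± 0.14 (edgeR, adjusted p = 3.25e-10), where 3.95% of genes were lower. Lgals3, the other member called at that time, was higher by 0.58 ± 0.11 (adjusted p = 3.8e-05), where 1.03% of genes were higher. At 36 h Spp1 stood at 50.6 and 164.6 against 105 and 158 (-0.37 ± 0.14, adjusted p = 0.143), and at 48 h at 278, 424, 622 and 484 against 187, 318, 468 and 305. For Spp1 the difference between the 48 h and 24 h effects was 1.59 ± 0.15 (adjusted p = 1.36e-17). The 142 genes called higher in this contrast made up 1.09% of those tested, and 4 of the 9 members were among them. Fabp5 differed by 0.98 ± 0.10 (adjusted p = 1.12e-16), Cd68 by 0.59 ± 0.14 (adjusted p = 0.00358) and Cd63 by 0.51 ± 0.13 (adjusted p = 0.00619). All 4 calls rested on 24 h A, which held 76 of the 99 ring spots at 24 h. Without it the Spp1 difference was 1.28 (adjusted p = 0.366), and those of Fabp5, Cd68 and Cd63 were 0.48, 0.37 and 0.24 (adjusted p = 0.517, 0.739 and 0.858).

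A wider class gave more spots at the early times. With the 5th percentile of the uninjured sections as the limit, 84 and 127 spots at 24 h, 44 and 57 at 36 h, and 89 to 350 at 48 h were hepatocyte-low, and every injured section entered the fit. Spp1 was lower in these spots at 24 h (log2 -0.48 ± 0.10, edgeR, adjusted p = 0.000242), as were 9.83% of genes, stood at 0.28 ± 0.11 at 36 h (adjusted p = 0.0613) and was higher at 48 h (1.03 ± 0.06, adjusted p = 5.72e-31). Fabp5 stood at -0.23 ± 0.15 at 24 h (adjusted p = 0.356) and 0.37 ± 0.16 at 36 h (adjusted p = 0.119), and was higher by 1.19 ± 0.09 at 48 h (adjusted p = 1.87e-08). Gpnmb, Trem2, Cd63, Cd68 and Lgals3 were higher in hepatocyte-low spots at each of the 3 times, against 7.8%, 7.85% and 33.2% of genes, Gpnmb by 1.11 ± 0.21, 1.59 ± 0.14 and 1.87 ± 0.06 and Lgals3 by 1.07 ± 0.10, 1.36 ± 0.10 and 1.70 ± 0.06. The 48 h effect exceeded the 24 h effect in 7 members, against 4.43% of 13149 genes higher and 7.34% lower, by most in Spp1 (1.50 ± 0.12, adjusted p = 1.47e-18) and Fabp5 (1.42 ± 0.17, adjusted p = 6.81e-05). This contrast was not repeated without single sections. The genes of the score moved between times, as given above for Hp and Cyp2e1, and their part in this contrast was not tested.

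Spots that were not hepatocyte-low were also summed on their own. In them Gpnmb went from 0, 0.074 and 0.0844 CPM in the uninjured sections to 88.6, 101, 183 and 131 at 48 h, and Fabp5 fell from 718, 805 and 1273 to 122, 148, 237 and 197. In these spots 8 members were higher and 1 lower at 48 h, against 22.4% and 19.8% of the 14796 genes tested. Gpnmb was higher by 11.17 ± 0.50 on the log2 scale, a value that depends on the near absence at 0 h, and Lgals3 by 4.74 ± 0.31 (edgeR, adjusted p = 1.71e-05). The Gpnmb levels beside the tissue in the same 48 h sections were 77.4, 91.1, 132 and 123 CPM (not TMM-scaled), and the part of transcripts that moved between spots was not tested.

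Before injury, 3 members marked the bile ducts. Spots with UMIs of at least 2 of 6 cholangiocyte genes (none a member) were called biliary and numbered 29, 52 and 31 at 0 h. Spp1 stood there at 428, 798 and 831 CPM in sections 2, 3 and 4 and at 37.2, 41.4 and 51.2 in the other spots, a log2 difference of 4.02 ± 0.09 (edgeR with section as a block, adjusted p = 4.96e-25). Cd63 stood at 40.4, 47.4 and 52.8 CPM against 10.4, 11.6 and 11.9 (2.09 ± 0.17, adjusted p = 1.4e-32), and Cd9 at 81.9, 78.7 and 75.4 against 48.8, 49.8 and 42.5 (0.77 ± 0.11, adjusted p = 9.6e-10). The groups did not overlap for any of the 3 genes. Fabp5 was lower in biliary spots (577, 662 and 935 CPM against 710, 799 and 1258, log2 -0.29 ± 0.05, adjusted p = 9.43e-09). These 4 were the calls among the 8 members tested, where 4.98% of 12578 genes were higher and 4.36% lower, and Gpnmb had no UMI in a biliary spot at 0 h. The myofibroblast list, which fibroblasts around ducts and vessels also express, summed to 95.7 to 150 CPM in biliary spots against 28.5 to 34.5 in the others, and its part was not tested.

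After injury, Spp1, Cd63 and Cd9 differed less between the spots classed as biliary and the others. The class itself moved, since Sox9, which is among its 6 markers, rose at each time (log2 2.77 ± 0.35 at 24 h, adjusted p = 0.000247), and biliary spots went from 1.33% to 1.93% of spots at 0 h to 1.52% to 5.06% after injury (30 to 133 spots per section). Spp1 stood at 474 and 353 CPM in biliary spots at 24 h, 489 and 378 at 36 h, and 382, 559, 788 and 957 at 48 h, which spans the range at 0 h, whereas its level in other spots stood at 112 and 102, 83.8 and 134, and 186, 279, 459 and 286. Averaged over the injured times the Spp1 difference was 1.69 ± 0.19 (adjusted p = 0.0143), in a contrast that called 1.27% of 12961 genes higher and 0.81% lower. Cd63 stood at 72.7 to 171 CPM in biliary spots and 67.2 to 187 in others, a difference of 0.08 ± 0.06 that did not pass (adjusted p = 0.715). A test of injured minus uninjured, added after the data were seen, gave -1.97 ± 0.17 for Cd63 (adjusted p = 3.19e-23), -2.28 ± 0.31 for Spp1 (adjusted p = 0.00638) and -0.61 ± 0.13 for Cd9 (adjusted p = 0.000407), where 1.93% of 12780 genes were lower. The Spp1 call was lost without 0 h 3 (-2.08, adjusted p = 0.0713). With biliary spots set by 2 of the 5 markers other than Sox9, an alternative added after the data were seen that left out 24 h B for too few such spots, the Spp1 call was also lost (-2.05, adjusted p = 0.0912), while Cd63 (-2.13, adjusted p = 6.8e-10) and Cd9 (-0.64, adjusted p = 0.0426) kept theirs. At 48 h, Gpnmb, Trem2, Cd68, Fabp5 and Lgals3 were lower in biliary spots, with log2 differences from -0.39 (Fabp5) to -0.56 (Cd68), against 1.6% of genes.

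**Figure D5:**
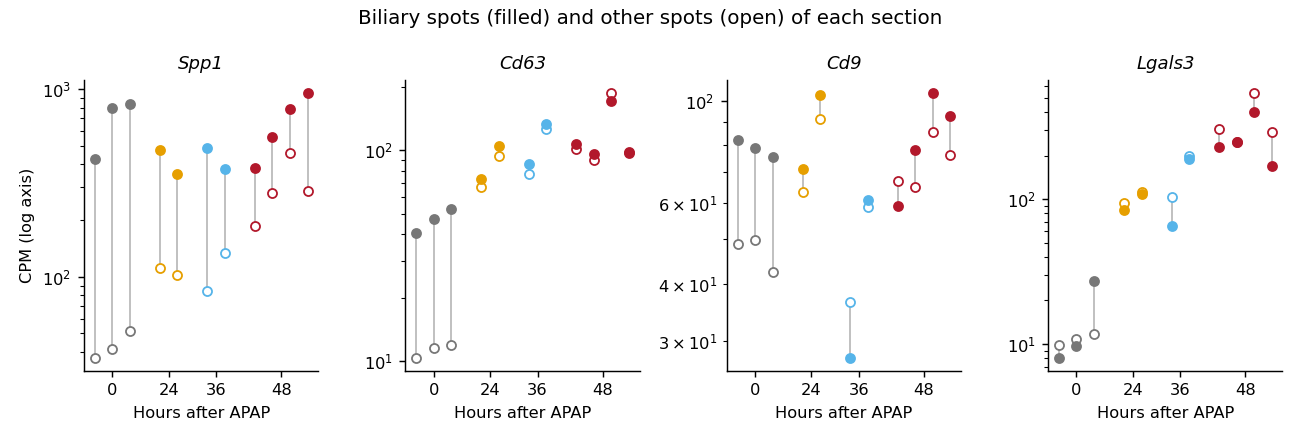
CPM (log axis) of Spp1, Cd63, Cd9 and Lgals3 in biliary spots (filled) and other spots (open) of each of the 11 sections, with a line joining the pair of each section. At 0 h the biliary points of Spp1, Cd63 and Cd9 lie above the others, and after injury those of Cd63 lie beside them.

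Across single spots at 48 h the members varied together only in part. Over the 28 pairs of the 8 members with enough UMIs, the median Pearson r per section was 0.135 to 0.223 and the highest 0.381, over 1490 to 3461 spots that share depth and neighbourhood. Among 7008 genes outside the members, the ones most like the summed members were Lyz2 (mean r over 4 sections 0.444), Ftl1 (0.442), Fth1 (0.437), Tmsb4x (0.425), Tmsb10 (0.378), Col1a2 (0.375), Psap (0.369), S100a6 (0.367), Col1a1 (0.354) and Ctsd (0.352). Lyz2 is lysozyme of macrophages and neutrophils, Ftl1 and Fth1 are the ferritin chains that store iron, and Col1a1 and Col1a2 are collagen chains. For each member but Atp6v0d2 the nearest 3 genes came from Lyz2, Ftl1, Fth1 and Tmsb4x. For Cd9 the highest r was 0.11 and for Atp6v0d2 0.0494, too weak in such sparse counts to be read.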

How the data were processed

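Visium counts were measured in 11 mouse liver sections. The deposited matrices hold UMI counts per gene and spot that the authors made with Space Ranger 1.0.0 on build mm10, per the submitters' processing notes, which also name Seurat 4.1.1. Spots under tissue entered if they held at least 800 genes and no more than 20% mitochondrial UMIs. UMIs were summed per section or per section and spot class, since spots are not replicates. Each spot was kept whole, and no doublet caller or deconvolution was used, as a spot covers several cells. Sums were tested with edgeR 4.0.16 (R 4.3.3, limma 3.58.1): filterByExpr, TMM scaling, quasi-likelihood test with robust estimation and Benjamini-Hochberg adjustment over all genes tested, called at 0.05. Time comparisons used all 11 sections in 1 fit, and spot class comparisons kept the section as a block and needed 20 spots per class (10 for biliary spots). Standard errors are the log2 change over the square root of F. The spread in F is shared in part across genes. A standard error can thus be smaller than a gene's own spread between sections, and very small p-values rest on that sharing. A score of 6 hepatocyte genes set hepatocyte-low spots. Thinned shares drew 2000 UMIs per spot with a fixed seed. Ratios used an offset of 0.5 UMIs and exact two-sided permutation tests over sections.

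The fits were tested on simulated data with independent sections. For 48 h against 0 h, set changes of 2-fold and 0.5-fold were called in 96% and 90% of genes, and 0.0555% of unchanged genes were called. The simulated time data held no difference between mice and less spread than the fit found, so error rates in this design remain untested. Depth per section was 31292663 to 67045372 UMIs, and counting intervals (95%) cover counting error only. Replicate sections differed by more than sampling noise. The labels give no batch, so batch and time cannot be told apart. Section letters were checked as pairs: deviations of 6 same-letter pairs correlated at -0.241 to 0.287. With 2 sections at 24 h and at 36 h, the deviations of A and B mirror each other, so these 6 values are not independent. The check cannot settle whether letters are pairs. The reported fit did not treat letters as pairs, and a fit with the letter as a block is given below.

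The members and the gene lists were chosen with earlier results of these data known. All 9 members are named in each comparison. From each other list the text names the 2 genes with the largest called rise and fall at 48 h against 0 h and relatives of a member, and for likeness the 10 genes with the highest mean r among genes with at least 500 UMIs. Tyrobp is the exception, and 2 genes that the rule names are not reported here. Alternatives were total-count scaling, no low-count filter, DESeq2 1.42.0, other spot limits and each section left out. Coordinates are those of the GRCm38 annotation.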

Additional observations from a re-analysis of the deposited data

Results flagged for a closer look

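In section 48 h C Cd63 stood apart from the other 48 h sections: its gap to the next section was 0.873 of the whole range, above Dixon's 95% limit for 4 sections, which chance passes in about 1 of 20 groups. No other member passed it at 48 h.

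Effects of spot class differed between times, as did the levels of genes that set the classes. In ring 1 against far spots the 48 h effect exceeded that of 24 h by 1.59 for Spp1, 0.98 for Fabp5, 0.59 for Cd68 and 0.51 for Cd63 on the log2 scale, calls that were lost without 24 h A. In hepatocyte-low spots at the 5th percentile it exceeded it by 1.50 for Spp1, 1.42 for Fabp5, 0.81 for Cd68, 0.75 for Gpnmb, 0.63 for Lgals3, 0.62 for Trem2 and 0.41 for Cd63. The biliary effect differed between injured and uninjured sections by -2.28 for Spp1, -1.97 for Cd63 and -0.61 for Cd9, and the Spp1 call was lost without 0 h 3 and when Sox9 was not used to set biliary spots.

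Spots beside the tissue, which no comparison used, held transcripts of the members. Over the 8 injured sections the median was 53.6 CPM for Gpnmb, 113 for Spp1, 30.8 for Trem2, 99.5 for Cd63, 64.4 for Cd68, 237 for Lgals3 and 3.27 for Atp6v0d2. The medians there at 0 h were 0.0882 for Gpnmb, 13.9 for Spp1, 1.26 for Trem2, 7.16 for Cd63, 10.3 for Cd68, 8.12 for Lgals3 and 0.882 for Atp6v0d2.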

How the results depend on the processing

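Each time point came from 1 mouse, 24 h and 36 h have 2 sections each, and 0 h holds 7 Gpnmb UMIs, which limits the precision of its fold change. Without single sections, the number of members called was 6 to 9 at 24 h against 0 h, 5 to 8 at 36 h, 8 to 9 at 48 h, 0 to 2 for 36 h against 24 h, 0 to 5 for 48 h against 36 h and 3 to 5 for 48 h against 24 h. It was 8 in every repeat for hepatocyte-low spots, 6 to 8 for ring 1, 8 to 9 for other spots, 4 in every repeat for biliary spots and 7 to 8 for the ratio to pan-macrophage UMIs.

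For 36 h against 24 h, 1 member was called in the reported fit, 2 with total-count scaling, 3 with DESeq2 and 0 with only the 2 groups compared. For 48 h against 36 h the count was 2 in the reported fit, 1 with no low-count filter, 5 with DESeq2 and 0 with only the 2 groups. With the section letter as a replicate block, the count for 48 h against 36 h was 0, that for 36 h against 24 h was 1 and that for 48 h against 24 h fell from 5 to 2; Cd63 turned to -0.037 for 48 h against 36 h. Beyond the letter, the labels give nothing that joins these sections. A fit with 3 biliary markers could not be made, since 1 section had enough such spots.

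Total-count scaling turned Cd9 at 36 h to 0.35, Spp1 for 36 h against 24 h to 0.068 and Cd9 for 48 h against 24 h to 0.093. At 48 h against 0 h it turned Atp6v1f to 0.27, Atp6v0d1 to 0.43, Tfe3 to 0.48, Igf1 to 0.016, Ftl1 to 0.19, Tspan31 to 0.051, Cd81 to 0.089, Cd82 to 0.19, Tspan7 to 0.13 and Lgals8 to 0.27, and the falls of Lamp2, Cd164, Lgals4, Cd3d and Nkg7 no longer passed.

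Without single sections, directions turned for differences that had not passed. The log2 difference ranged for Cd9 from -0.45 to 0.22 at 36 h against 0 h and from -0.36 to 0.17 for 48 h against 24 h. For 36 h against 24 h it ranged from -0.34 to 0.24 for Spp1 (0.046 without 24 h A), -0.055 to 0.60 for Cd63, -1.21 to 1.04 for Fabp5 (0.11 without 36 h B) and -0.41 to 0.94 for Atp6v0d2. For 48 h against 36 h it ranged from -0.096 to 0.60 for Cd63 (-0.084 without 48 h C) and -0.34 to 0.93 for Fabp5 (-0.051 without 48 h C). For 48 h against 24 h it ranged from -0.99 to 1.201 for Fabp5 and -0.093 to 1.25 for Atp6v0d2. Atp6v0d2 ranged from -0.11 to 0.20 in hepatocyte-low spots and from -0.069 to 0.49 in ring 1. In biliary spots at 0 h Cd68 ranged from -0.52 to 0.063, Trem2 from -0.30 to 0.41 (-0.11 without 0 h 4) and Lgals3 from -0.17 to 0.66. With all 8 injured sections, an alternative added after the data were seen, Atp6v0d2 in hepatocyte-low spots turned to -6.32, as it had no UMI in such spots at 24 h or 36 h. Of the values of single genes under all alternatives, 2404 kept their direction and side of the threshold, 149 no longer passed, 24 newly passed and 35 turned. The cause of these changes was not tested.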
